A study of Mus musculus with 2 samples.

Results

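The genes of the tumour necrosis factor (TNF) superfamily, ligands and receptors, were described by the accessible chromatin at their loci in mouse regulatory T cells. The 38 genes, 18 encoding ligands and 20 encoding receptors, were taken from a list by name and were set against all 21911 protein-coding genes of the annotation. The list left out Tnfrsf4, Tnfrsf9, Tnfrsf18 and Tnfrsf1b, the 4 receptors of the family best known from regulatory T cells. ATAC-seq, in which a transposase cuts and tags exposed DNA, had been run on 2 libraries of 1 group: regulatory T cells kept as primary cells, from mice of strain C57BL/6NJ, with age and sex not recorded and no treatment or control group named. The labels call the libraries biological replicates 1 and 2 but give both the same donor identifier, so the spread between them may be technical. The entry names in the lists carry the words 72hrs, ASTARR and insert, which no source used here explains, and the labels point to a protocol for differentiating CD4+ T cells that was not read here. With 1 group there was nothing to test between conditions. Each value is given for both replicates.

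Most TNF superfamily ligands are trimeric proteins held in the cell membrane or shed from it, and they signal by clustering receptors on the facing cell. Some of the receptors carry a death domain and can start caspase-driven cell death, while most of the others bind TRAF adaptors and activate NF-kB. In T cells the family supplies costimulation, survival and contraction signals, and several of the ligands are made by T cells to instruct B cells, dendritic cells and stroma.

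Accessible regions were read from the peak lists that the authors deposited for each replicate. A promoter was called open where a region overlapped the window of 1 kb to either side of any annotated start site in both replicates. A locus was the annotated gene extended by 10 kb at each end. A region of the replicate 1 list was called replicated where a region of the replicate 2 list overlapped it by at least 1 bp. The lists held 68832 regions in replicate 1 and 78178 in replicate 2 on the main chromosomes, and 93.2% and 81.6% of them were replicated. Promoters were open at 9 of 9 marker genes of regulatory T cells (Foxp3, Il2ra, Ctla4, Ikzf2, Ikzf4, Tnfrsf18, Tnfrsf4, Tnfrsf9 and Il10) and at 8 of 8 pan T cell markers. They were open at 2 of 7 myeloid, 2 of 5 dendritic, 2 of 4 NK and 2 of 5 epithelial markers. Among B cell markers, the promoters of Cd79b, Pax5 and Cr2 were open and those of Ms4a1 and Cd79a were not, and at Blk a promoter region was called in replicate 2 alone. Replicated regions in the locus numbered 0 at Ms4a1, 5 at Cd79a, 4 at Cd79b, 7 at Pax5, 2 at Cr2 and 4 at Blk, so loci of several B cell genes held regions. The part of other cells in the results was not tested. The number of reads behind the lists is unknown, so an uncalled promoter is one that was not detectable at these depths.

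Nearly the whole family had an open promoter. Of the 38 genes, 34 (89.5%) had an open promoter, against 64.4% of all protein-coding genes. The same 34 were called in each replicate, and no member had a promoter region in a single one. The open promoters belonged to 16 of 18 ligands (88.9%) and 18 of 20 receptors (90.0%). The shares of ligands and receptors thus differed by less than what 1 gene contributes to either. The 4 genes without a promoter region were Tnfsf13, which encodes the B cell survival factor APRIL, Tnfsf18, which encodes the GITR ligand, Tnfrsf17, which encodes the plasma cell receptor BCMA, and Eda2r, the receptor of an ectodysplasin isoform. At least 1 replicated region lay in the locus of 36 of the 38 genes, against 76.3% of all genes, and the exceptions were Tnfsf18 and Eda2r.

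The loci also held more regions than gene loci did in general. Members had a median of 4 replicated regions per locus, with 4 at ligands and 4 at receptors, against 2 for all genes. Loci of members were 35.0 kb long at the median, 30.1 kb for ligands and 38.1 kb for receptors, against 37.4 kb for all genes, so the member loci were not longer than those of other genes. Each locus was compared with the mean of all genes in the same of 100 classes of locus length. That ratio had a median of 1.63 over the members, 1.81 over the ligands and 1.57 over the receptors, against 0.868 over all genes. The count was above the class mean at 26 members (68.4%), 14 ligands (77.8%) and 12 receptors (60.0%), against 44.9% of all genes. Keeping only the 50000 strongest entries of each list brought the member median down to 1.11 by signal and 1.30 by −log10 q. By signal the ligand median was then 1.02 and the receptor median 1.15, the reverse of the order in the full lists. The order was also reversed where the overlap had to cover 0.5 of each region, with 1.34 for ligands and 1.53 for receptors. By −log10 q, 9 ligands and 15 receptors were above their class. No order between the 2 kinds of gene held under all of these settings.

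**Figure D1:**
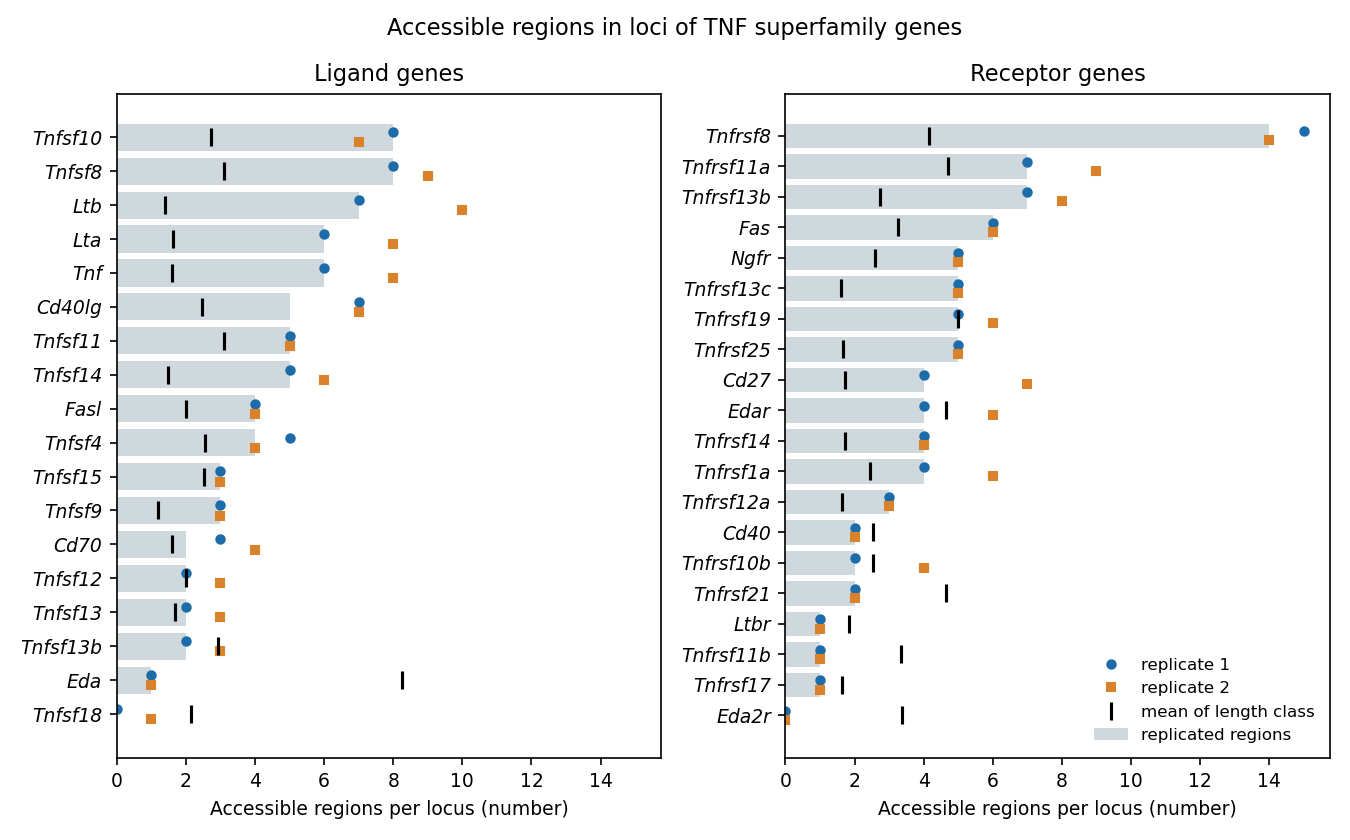
Accessible regions per locus (x axis, number) for each ligand gene (left) and receptor gene (right). Grey bars are replicated regions, circles and squares the regions in replicate 1 and replicate 2, and black ticks the mean of all genes of like locus length. Tnfrsf8 had the most, 14 replicated regions, while Tnfsf18 and Eda2r had none.

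The 143 distinct replicated regions were spread between promoters, introns and flanks. The counts per gene sum to 155, because some regions lay in the loci of several members. Of the 143, 41 (28.7%) overlapped a promoter of a member, 41 (28.7%) lay in an intron of one and 43 (30.1%) were intergenic. Only 8 (5.59%) overlapped the promoter of a gene outside the list alone. At replicate 1, 148 member regions were called, of which 96.6% were replicated. At replicate 2, 168 were called, of which 85.1% were replicated, close to the shares of the whole lists given above.

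Among the ligands, the lymphotoxin cluster on chromosome 17 was the densest. Lta encodes lymphotoxin alpha, Ltb the membrane anchor lymphotoxin beta and Tnf the inflammatory cytokine TNF, and the genes lie side by side. Their joint locus of 30.9 kb held 9 replicated regions, or 29.1 per 100 kb, against 2.35 per 100 kb over the main chromosomes. Lta had 6 regions in replicate 1 and 8 in replicate 2, and all 6 were replicated. Tnf had the same numbers, 6, 8 and 6. Ltb had 7 in replicate 1 and 10 in replicate 2, with 7 replicated. Of these 7, 1 was at its own promoter and 4 overlapped promoters of Lst1, Tnf or Lta. The other 2 lay in introns of Lst1, a neighbour outside the list. These loci overlap, so most of the regions are counted for more than 1 of the 3 genes.

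The Lta promoter was the strongest of the family by −log10 q, the deposited significance value of a region. It reached 314 in replicate 1 and 378 in replicate 2. Both signal and −log10 q are the authors' own values per region and serve here only to rank regions within a list. Among the open promoters of all genes the Lta value stood at the 93.4 percentile in replicate 1 and the 86.7 percentile in replicate 2. By signal, the other deposited value, whose unit the sources do not give, it ranked low, at 6.84 and 6.11, the 17.3 and 13.1 percentiles. The 250 bases before the Lta start site are shown because this region is centred on it, in mm10 on the minus strand at chr17:35205352-35205601. Capitals mark letters of the STAT motif TTCNNNGAA, which occurred at 2 places.

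Lta, 250 bases upstream: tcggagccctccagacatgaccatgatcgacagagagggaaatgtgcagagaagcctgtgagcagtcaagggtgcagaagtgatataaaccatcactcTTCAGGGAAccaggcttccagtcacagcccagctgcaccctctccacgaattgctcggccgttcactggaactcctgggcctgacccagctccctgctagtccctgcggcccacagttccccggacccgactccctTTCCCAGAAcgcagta

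The Tnf promoter, by contrast, carried one of the weakest called regions. Its −log10 q was 10.2 in replicate 1 and 19.3 in replicate 2, at the 6.20 and 7.60 percentiles of open promoters. Its signal of 1.73 and 1.82 stood at the 0.004 and 0.018 percentiles. The replicate 1 summit lay 0.009 kb from the start site. The 250 bases before the start site, in mm10 on the minus strand at chr17:35202008-35202257, are shown for comparison with Lta, with the NFAT letters TGGAAA (here on the opposite strand) in capitals.

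Tnf, 250 bases upstream: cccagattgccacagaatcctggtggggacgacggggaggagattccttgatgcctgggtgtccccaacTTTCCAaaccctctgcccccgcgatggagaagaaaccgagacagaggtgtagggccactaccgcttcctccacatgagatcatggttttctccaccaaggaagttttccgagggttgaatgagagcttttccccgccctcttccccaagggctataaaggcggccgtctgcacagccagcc

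Ltb had the summit of its promoter region past the start site. The region spanned the start site, but its summit lay 1.38 kb downstream in both replicates. The −log10 q was 94.0 in replicate 1 and 118 in replicate 2. Ltb was the only open ligand whose nearest summit lay more than 1 kb from the principal start site. Upstream of Lta, 2 intergenic regions stood out. The one 5.03 kb upstream had a −log10 q of 128 in replicate 1 and 158 in replicate 2, and the one 9.85 kb upstream had 83.2 and 145. The summit of the nearer one is shown because it held the only NF-kB motif (in capitals) among the 94 member regions away from promoters. It lies in mm10 at chr17:35210277-35210477 and is given on the plus strand.

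Lta, region 5.03 kb upstream: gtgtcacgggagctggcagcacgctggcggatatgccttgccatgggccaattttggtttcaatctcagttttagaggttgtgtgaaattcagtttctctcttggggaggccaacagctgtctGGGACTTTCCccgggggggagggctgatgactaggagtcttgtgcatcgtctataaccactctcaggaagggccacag

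**Figure D2:**
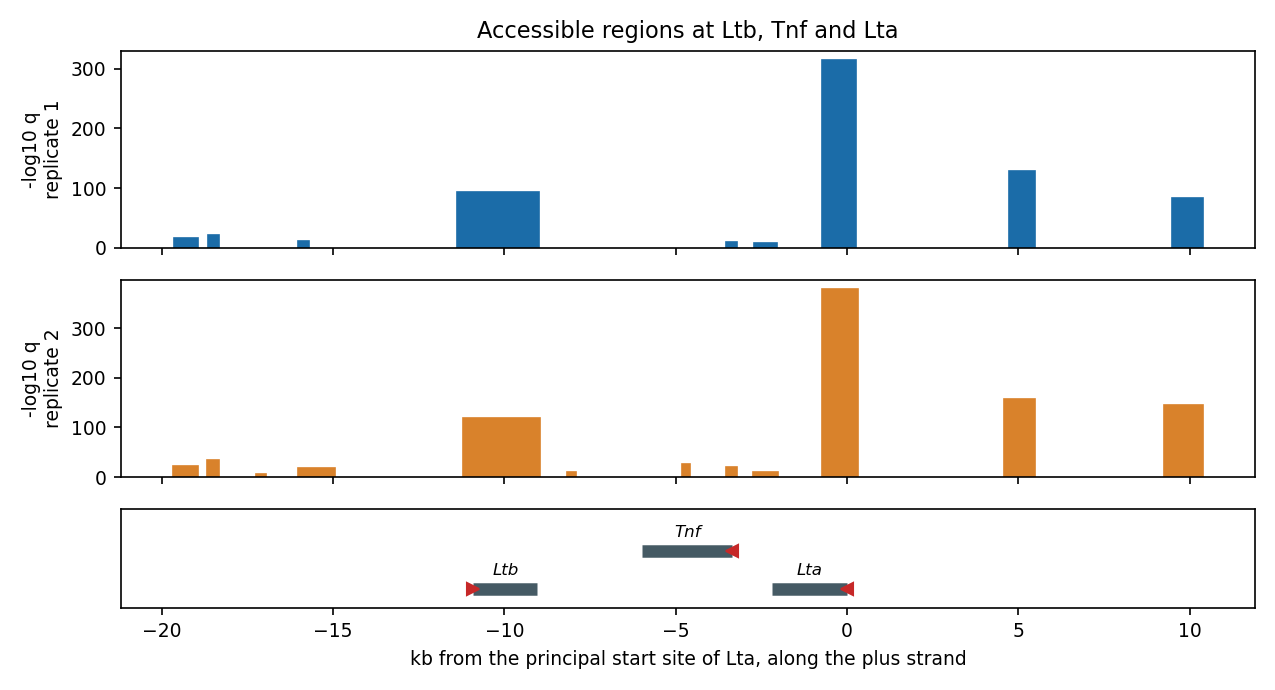
Regions over the lymphotoxin cluster in replicate 1 (top) and replicate 2 (middle), with −log10 q on the y axis, and the 3 genes with their start sites (bottom). The x axis is the distance in kb from the Lta start site along the plus strand. The tallest bar in both replicates, 314 and 378, is at the Lta start site, while the bars at the Tnf start site reach 10.2 and 19.3.

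Tnfsf10, Tnfsf8, Tnfsf11 and Tnfsf14 were further ligand loci with many or strong regions. Tnfsf10, which encodes the death ligand TRAIL, had 8 regions in replicate 1 and 7 in replicate 2, and all 8 were replicated because a single wide region of replicate 2 covered 2 of replicate 1. That was 2.93 times the mean of its length class. Its promoter had a −log10 q of 96.0 and 157, at the 40.0 and 44.2 percentiles. A region 28.7 kb downstream of the start site, beyond the gene's end, had the highest signal at this locus, 16.1 in replicate 1 and 17.7 in replicate 2. These stood at the 97.5 and 99.4 percentiles of all regions in their lists. Its summit, in mm10 at chr3:27345615-27345815 on the plus strand, is shown for that signal. Capitals mark a STAT match at the left edge and RUNX letters (TGTGGT on the opposite strand).

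Tnfsf10, region 28.7 kb downstream: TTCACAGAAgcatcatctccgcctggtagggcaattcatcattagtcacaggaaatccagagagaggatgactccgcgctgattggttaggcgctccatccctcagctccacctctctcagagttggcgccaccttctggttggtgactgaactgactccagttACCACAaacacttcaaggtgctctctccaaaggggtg

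Tnfsf8, which encodes CD30 ligand, had 8 regions in replicate 1 and 9 in replicate 2, with 8 replicated, 2.58 times its class mean. Its promoter windows were covered by 2 regions of modest −log10 q, the stronger with 38.8 and 62.6. The strongest region of the locus was inside an intron 18.9 kb from the start site and reached 133 in replicate 1 and 197 in replicate 2. The intronic region thus exceeded the promoter in both replicates. Its summit, in mm10 at chr4:63842308-63842508 on the plus strand, is shown for this reason, with a STAT match followed by NFAT letters in capitals.

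Tnfsf8, region 18.9 kb into the gene: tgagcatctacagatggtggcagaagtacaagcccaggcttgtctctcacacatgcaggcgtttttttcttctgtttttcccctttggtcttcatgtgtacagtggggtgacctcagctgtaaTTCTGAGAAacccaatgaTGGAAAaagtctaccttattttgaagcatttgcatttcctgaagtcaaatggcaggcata

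Tnfsf11 encodes RANK ligand, the osteoclast differentiation factor that T cells also make. Its promoter was second among the listed genes by the mean percentile of −log10 q, just ahead of Tnfrsf19. It stood at 177 in replicate 1 and 283 in replicate 2, or the 68.4 and 72.9 percentiles. The other 4 replicated regions of the locus were weak, with a −log10 q between 1.88 and 14.2 in replicate 1. Tnfsf14, which encodes LIGHT, a ligand of HVEM and the lymphotoxin beta receptor, had 5 replicated regions and a promoter at 130 and 198. At Tnfsf9, the ligand of 4-1BB, the promoter region had a −log10 q of 23.6 and 40.2, while a region 3.66 kb downstream reached 197 and 303. That distal region was the strongest outside a promoter among those described here, and it too exceeded its promoter in both replicates. Tnfsf9 was picked out after its values were seen.

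Ligands that act on other immune cells fell across the range. Fasl encodes Fas ligand, the killing ligand of activated T cells. Its 4 regions in each replicate were all replicated, and its promoter had a −log10 q of 75.4 in replicate 1 and 150 in replicate 2, with the summit 0.005 and 0.010 kb from the start site. Its upstream sequence, in mm10 on the minus strand at chr1:161788496-161788745, is shown as a T cell effector promoter that was open although its CpG ratio, 0.205, was among the lowest of the family. None of the 6 motifs matched in it.

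Fasl, 250 bases upstream: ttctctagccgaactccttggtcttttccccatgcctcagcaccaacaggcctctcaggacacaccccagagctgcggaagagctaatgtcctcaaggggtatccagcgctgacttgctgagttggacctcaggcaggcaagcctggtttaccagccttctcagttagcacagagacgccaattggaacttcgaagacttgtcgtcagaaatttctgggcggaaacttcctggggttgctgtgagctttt

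Tnfsf4, which encodes OX40 ligand, had a promoter at 76.6 and 122. Cd70, the ligand of CD27, had one at 42.3 and 68.9. Tnfsf13b, which encodes the B cell survival factor BAFF, had one at 91.1 and 121. These 3 genes had 4, 2 and 2 replicated regions. Cd40lg, the T cell ligand that licenses B cells and dendritic cells through CD40, had 7 regions in each replicate and 5 replicated. The region at its start site was nonetheless weak, with a −log10 q of 5.73 in replicate 1 and 10.3 in replicate 2. In replicate 2 a second region, 1.39 kb upstream, reached into the promoter window and was the stronger one at 14.2. The weakest promoters by mean percentile were those of Tnfsf12 (TWEAK) at 3.95 and 4.62, Tnfsf15 (TL1A) at 4.76 and 7.37, Eda (ectodysplasin) at 6.82 and 8.57 and the receptor gene Tnfrsf11b at 6.82 and 10.03. Eda is a gene of 425 kb and its promoter region was the only one called in its locus, 0.121 times the mean of its length class.

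The closed ligand genes differed in their surroundings. Tnfsf13 had 2 replicated regions in its locus, and they overlapped the promoters of Senp3 on one side and of Tnfsf12 and the readthrough gene Tnfsfm13 on the other. Tnfsf18 had no region in its locus in replicate 1 and 1 in replicate 2, 7.30 kb upstream. The nearest replicated region lay 12.2 kb upstream of its start site and at no promoter. Its upstream sequence, in mm10 on the plus strand at chr1:161494405-161494654, is shown as a closed promoter beside the open ones, and none of the 6 motifs matched in it. Tnfrsf18, the gene of its receptor GITR, was open with 4 replicated regions.

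Tnfsf18, 250 bases upstream: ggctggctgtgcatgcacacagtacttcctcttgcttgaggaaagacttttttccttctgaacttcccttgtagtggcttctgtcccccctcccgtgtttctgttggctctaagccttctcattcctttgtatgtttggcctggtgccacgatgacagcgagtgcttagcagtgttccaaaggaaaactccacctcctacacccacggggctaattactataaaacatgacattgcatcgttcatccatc

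Among the receptors, Tnfrsf8 stood first. It encodes CD30, a TRAF-binding receptor of activated lymphocytes. It had 15 regions in replicate 1 and 14 in replicate 2 over its locus, with 14 replicated, 3.37 times the mean of its length class. All 14 regions of replicate 2 had a partner. Of the replicated ones, 1 was at the promoter, 8 lay in introns, 1 in an exon and 4 outside the gene. The promoter was of moderate strength, with a −log10 q of 45.8 in replicate 1 and 78.5 in replicate 2, at the 21.5 and 24.4 percentiles. An intronic region 14.7 kb into the gene exceeded it at 150 and 197, and so did a region 4.30 kb upstream at 111 and 185. The intronic summit, in mm10 at chr4:145300352-145300552 on the plus strand, is shown as the strongest region of the locus, with RUNX letters (opposite strand) in capitals.

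Tnfrsf8, region 14.7 kb into the gene: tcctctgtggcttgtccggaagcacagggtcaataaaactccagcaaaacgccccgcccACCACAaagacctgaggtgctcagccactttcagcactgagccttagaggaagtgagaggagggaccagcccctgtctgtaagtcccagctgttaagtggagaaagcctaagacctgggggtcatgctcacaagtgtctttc

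**Figure D3:**
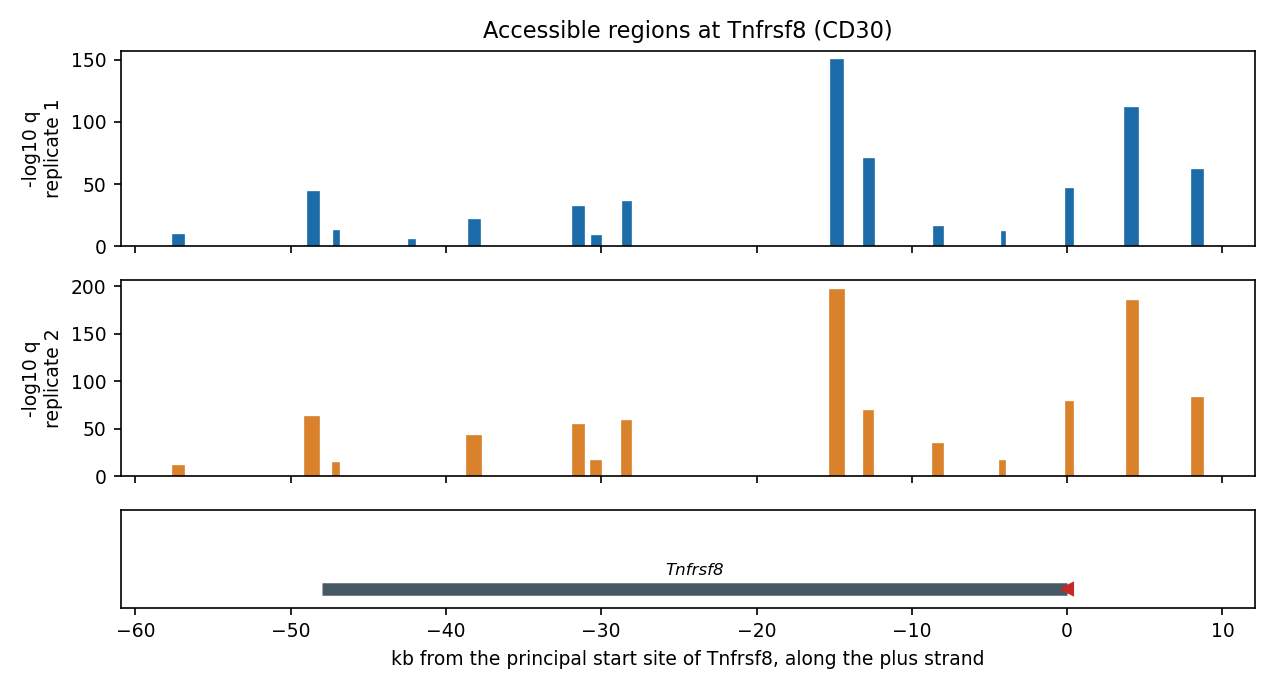
Regions over the Tnfrsf8 locus in replicate 1 (top) and replicate 2 (middle), with −log10 q on the y axis, and the gene with its start site (bottom). The x axis is the distance in kb from the start site along the plus strand, so the gene runs to the left. The intronic region 14.7 kb into the gene is the tallest bar, 150 and 197, and the promoter reaches 45.8 and 78.5.

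Tnfrsf13b, which encodes TACI, a receptor of BAFF and APRIL best known from B cells, had 7 regions in replicate 1, 8 in replicate 2 and 7 replicated, 2.56 times its class mean. The region next to its principal start site, 0.552 kb upstream, was weak at 17.8 in replicate 1 and 36.8 in replicate 2. Its strongest promoter region, at 168 and 186, lay at an internal annotated start 15.7 kb downstream. A row of 3 intergenic regions lay upstream, and the nearest of them exceeded that promoter region in both replicates. Their −log10 q was 97.6 and 142 at the outermost, 155 and 187 at the middle one and 182 and 272 at the nearest, 3.66 kb from the start site. The summit of the nearest, in mm10 at chr11:61122991-61123191 on the plus strand, held AP-1 (TGANTCA), NFAT and RUNX letters, marked in capitals in that order.

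Tnfrsf13b, region 3.66 kb upstream: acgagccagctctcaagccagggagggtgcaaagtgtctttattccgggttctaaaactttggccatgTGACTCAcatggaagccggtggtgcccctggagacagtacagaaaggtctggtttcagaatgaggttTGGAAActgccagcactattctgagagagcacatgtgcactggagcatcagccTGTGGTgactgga

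Tnfrsf11a, which encodes RANK, had 7 regions in replicate 1, 9 in replicate 2 and 7 replicated. Over its long locus of 87.3 kb this was 1.49 times the class mean. The promoter, rich in CpG, was weak at 27.3 and 31.3, and the strongest region was in an intron 4.16 kb from the start site, at 34.3 and 41.6. All of the Tnfrsf11a regions were thus of low to moderate strength. The summit of the intronic one, in mm10 at chr1:105784775-105784975 on the plus strand, is shown as the strongest of the locus, with NFAT letters in capitals.

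Tnfrsf11a, region 4.16 kb into the gene: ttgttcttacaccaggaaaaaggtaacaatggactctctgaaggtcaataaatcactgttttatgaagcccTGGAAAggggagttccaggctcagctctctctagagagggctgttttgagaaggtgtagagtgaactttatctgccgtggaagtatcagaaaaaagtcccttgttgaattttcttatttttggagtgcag

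The 7 death domain receptors (Tnfrsf1a, Fas, Tnfrsf10b, Tnfrsf21, Tnfrsf25, Ngfr and Edar) were all open, against 64.4% of all genes. They had a median of 4 replicated regions, against 2 for all genes. Fas, the receptor of Fas ligand that removes activated T cells, had 6 regions in each replicate, all replicated. Its main promoter had a −log10 q of 157 and 225, at the 62.4 and 61.6 percentiles. A second region, with its summit 8.74 kb downstream in replicate 1 and within 1 kb before an annotated internal start, had 63.6 and 121, with a signal of 10.7 and 12.5. By signal this region was about as high as the main promoter, at 11.0 and 11.1. Its summit, in mm10 at chr19:34299309-34299509 on the plus strand, is shown as the strongest Fas region that touches no exon, and none of the 6 motifs matched in it.

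Fas, region 8.74 kb downstream: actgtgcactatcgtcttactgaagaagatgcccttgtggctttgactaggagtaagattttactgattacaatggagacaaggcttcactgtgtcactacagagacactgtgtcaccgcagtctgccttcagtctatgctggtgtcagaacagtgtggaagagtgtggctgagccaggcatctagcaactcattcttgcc

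Tnfrsf1a encodes TNF receptor 1, and its promoter had 37.1 and 61.6. Tnfrsf10b, the TRAIL receptor of the mouse, had 53.6 and 78.3. Tnfrsf21, which encodes death receptor 6, had 75.4 and 150. Tnfrsf25, which encodes death receptor 3, a costimulator of T cells, had 96.4 and 154 and 5 replicated regions. Only its promoter region was clear of other genes, since the other 4 overlapped an exon or promoter of a neighbour. Ngfr, the neurotrophin receptor p75, had 42.6 and 66.3, at a region 1.35 kb past its start site in replicate 1. Edar, the ectodysplasin receptor, had 19.9 and 36.1. Edar was among the weaker ones.

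Tnfrsf19, which encodes TROY, a receptor known from brain and skin, had the promoter with the highest −log10 q among the listed receptors. It reached 184 in replicate 1 and 259 in replicate 2, at the 70.3 and 68.5 percentiles. Its signal of 17.3 and 16.4 was at the 96.9 and 92.4 percentiles, the highest among the listed genes in both replicates. The locus held 5 replicated regions, 1.00 times its class mean, so the strength lay in the promoter rather than in number. Cd40, best known from B cells and dendritic cells, had a promoter at 155 and 188, the 61.9 and 52.4 percentiles, but only 2 replicated regions, 0.791 times its class mean.

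Among receptors for T cell ligands, Tnfrsf14 (HVEM) had a promoter at 87.4 and 124 and 4 replicated regions. Cd27, a costimulator of resting T cells, had one at 14.9 and 26.0 and 4 replicated regions. Only its promoter region was clear of other genes, since the rest lay at an intron, a promoter or an exon of Vamp1 or Tapbpl. Ltbr, the lymphotoxin beta receptor of stroma and myeloid cells, had its promoter as the only region of its locus, at 7.60 and 13.9. Tnfrsf13c, which encodes the BAFF receptor of B cells, had one at 34.8 and 41.0 and 5 replicated regions. Tnfrsf12a, the TWEAK receptor, had one at 50.6 and 86.0 and 3 replicated regions. Tnfrsf11b, which encodes the decoy receptor osteoprotegerin, had its promoter as the single region of its locus. Tnfrsf17 also had a single region, at 144 and 200, but it sits on the promoter of the neighbouring gene Snx29, 9.09 kb from the Tnfrsf17 start site. Eda2r had no region in either replicate, and the nearest replicated one lay 54.3 kb upstream.

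Grouped by system, and to be read against the 64.4% of all genes that were open, all 5 genes of the lymphotoxin and LIGHT system were open, with a median ratio to the length class of 3.38. Of the costimulatory genes 10 of 11 were open, and Tnfsf18 was the exception. All 3 genes of the RANK system were open, against 4 of 5 ectodermal and neural genes. In the BAFF and APRIL system 3 of 5 were open. Known ligand and receptor partners made 25 pairs, counting the 4 receptors outside the list. The pairs share genes, so they are no independent counts. Both promoters were open in 20 pairs, the ligand alone in 2, the receptor alone in 2 and neither in 1. The ligand alone was open for Tnfsf13b with Tnfrsf17 and for Eda with Eda2r. The receptor alone was open for Tnfsf13 with Tnfrsf13b and for Tnfsf18 with Tnfrsf18, and neither for Tnfsf13 with Tnfrsf17. Each of the 5 incomplete pairs holds 1 or more of the same 4 closed genes by definition, since the 4 receptors outside the list were open. With only the 50000 strongest entries of each list, both promoters were open in 9 pairs by signal and in 13 by −log10 q. Of all single genes, 59.4% and 60.0% were then open. A pair needs 2 open promoters, so shares of single genes are no background for pairs. No share over pairs of other genes was computed.

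Although open, the promoters of the listed genes were weak for open promoters. Among the open promoters of all genes, where the median is 50 by construction, the members' strongest promoter regions stood at a median percentile of 22.4 in replicate 1 and 24.4 in replicate 2 by −log10 q. By signal the medians were 17.2 and 13.1. Ligands had medians of 26.2 and 28.1 by −log10 q and receptors 22.4 and 24.4. By signal the ligands had 13.2 and 11.0 and the receptors 17.8 and 13.6, so which kind ranked higher depended on the measure. The mean of the 2 replicates by −log10 q ran from 1.34 at Tnfsf12 to 90.1 at Lta, with a median of 23.7.

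**Figure D4:**
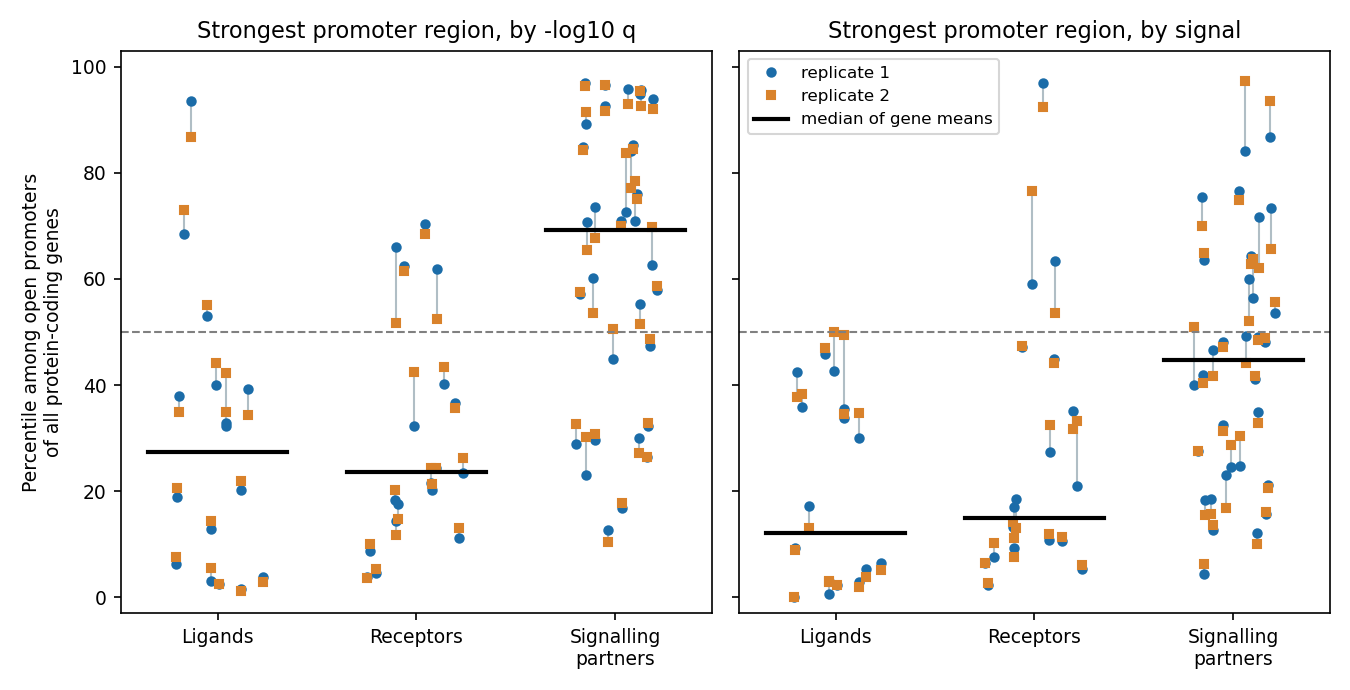
Percentile of the strongest promoter region among the open promoters of all protein-coding genes (y axis) by −log10 q (left) and by signal (right), for ligands, receptors and signalling partners. Each gene is a circle (replicate 1) joined to a square (replicate 2), black lines are medians of the gene means, and the dashed line is the median of all genes, 50. Most ligands and receptors lie below the dashed line on both measures.

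Many of the member calls lay in the weaker part of the lists. With the 50000 strongest entries by signal, 24 members (63.2%) were open, against 59.4% of all genes. With the 50000 strongest by −log10 q, 28 (73.7%) were open, against 60.0%. The member share was thus near the background by signal. Signal removed Tnf, Ltb, Tnfsf9, Tnfsf12, Tnfsf15, Cd40lg, Eda, Tnfrsf11b, Tnfrsf12a and Cd27, and −log10 q removed Tnfsf12, Tnfsf15, Cd40lg, Eda, Tnfrsf11b and Ltbr. Tnfsf12, Tnfsf15, Cd40lg, Eda and Tnfrsf11b were lost under both. By signal the losses left 9 open ligands and 15 open receptors.

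Promoters rich in CpG dinucleotides are open in most tissues, so the members were also split by CpG content. The ratio of observed to expected CpG within 500 bp of the principal start site had a median of 0.393 in members, 0.311 in ligands and 0.440 in receptors, against 0.571 in all genes. At a ratio of 0.6, a threshold chosen after the data were seen, 6 members were rich in CpG: Tnfsf9, Tnfrsf10b, Tnfrsf11a, Tnfrsf12a, Tnfrsf19 and Tnfrsf21. All 6 were open, against 94.4% of CpG-rich genes. Of the 32 members under the threshold 28 (87.5%) were open, against 37.2% of all genes under it. Among CpG-poor genes the member share remained above the background in the 50000 strongest entries, with 20 of 32 (62.5%) against 31.9% by signal and 22 of 32 (68.8%) against 32.2% by −log10 q.

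Open CpG-poor members had a median percentile of 22.0 by −log10 q and 14.7 by signal, against 29.9 and 34.9 for all open CpG-poor genes. Within the family, CpG ratio and strength hardly moved together, with a Spearman's rho of -0.001 for −log10 q and 0.127 for signal over 34 genes that share the same 2 libraries. Locus length and the number of replicated regions had a rho of 0.006 over the 38 genes. The strongest promoter by −log10 q, Lta, was CpG-poor at 0.363, and Tnfrsf11a, with the highest CpG ratio of 0.765, stood at the 13.1 percentile.

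**Figure D5:**
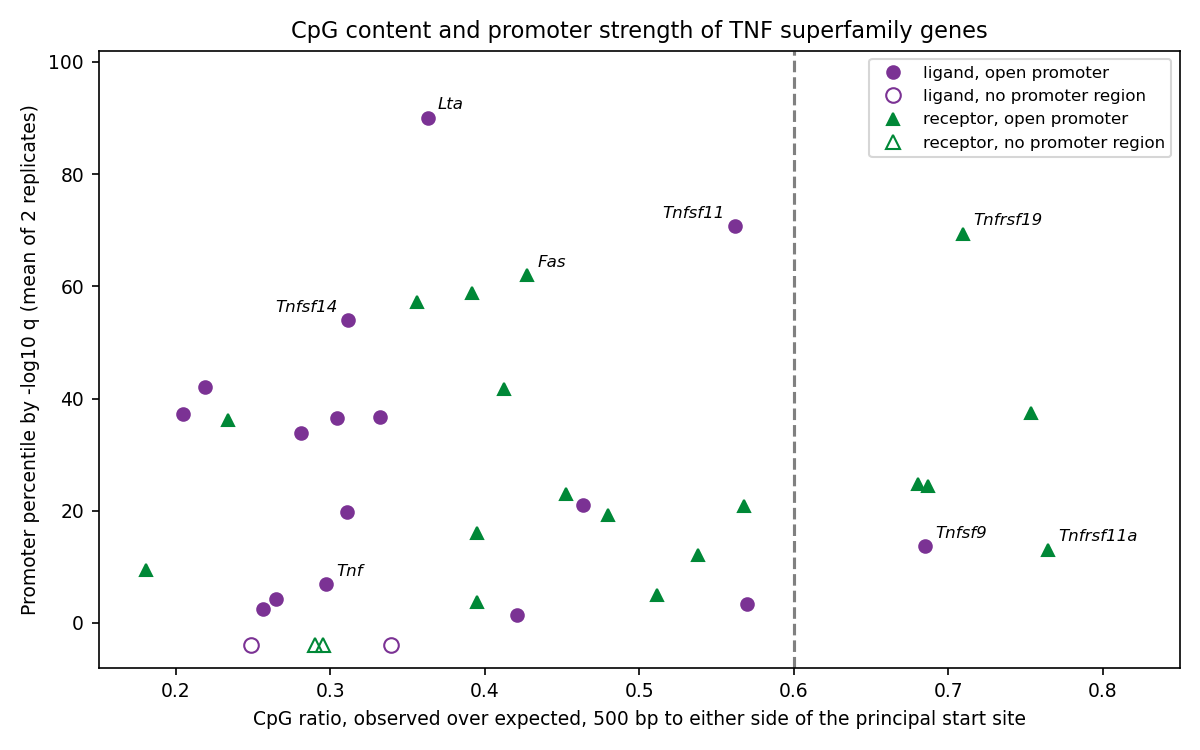
CpG ratio around the principal start site (x axis, observed over expected) against the promoter percentile by −log10 q, mean of 2 replicates (y axis), for ligand and receptor genes. Filled symbols are open promoters, open symbols at the bottom the 4 genes without a promoter region, and the dashed line marks a CpG ratio of 0.6. Lta lies high at a ratio of 0.363, and no trend runs through the points.

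Summits lay close to start sites, which is partly built in, since an open call requires a region near a start site. A replicated summit lay within 1 kb of the principal start site in 15 of 18 ligands (83.3%) and 18 of 20 receptors (90.0%). The share of all genes was 58.0%, which includes genes without an open promoter. Over all genes, 14103 were open and 12701 had a summit that close, against 34 and 33 members. The median distance was 0.083 kb for ligands and 0.095 kb for receptors, against 0.377 kb for all genes, open or not. Of the open members, Ltb alone had no summit that close.

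The signalling partners of the receptors had stronger promoters. They were 32 adaptors, kinases, ubiquitin enzymes and death effectors, such as Traf1, Tradd, Ripk1, Casp8 and Tnfaip3. All 32 promoters were open, against 64.4% of all genes. A summit lay within 1 kb of the principal start site at 30 of the 32, against 58.0% of all genes. Of the 32, 22 were rich in CpG, and 94.4% of all CpG-rich genes were open. The open promoters of the partners stood at a median percentile of 70.8 and 68.7 by −log10 q and 44.3 and 42.9 by signal. These values were above the members' medians on both measures. Their loci held a median of 4 replicated regions and the ratio to the length class had a median of 1.44. The partners with the most regions were Tnfaip8, a regulator of cell death, with 19, Otulin, a linear ubiquitin protease, with 11, and Cflar, the caspase inhibitor cFLIP, and Tank, a TRAF binder, with 9 each. The 4 receptors outside the list, Tnfrsf4, Tnfrsf9, Tnfrsf18 and Tnfrsf1b, were all open with a median of 8 replicated regions and a median ratio of 3.22. Of the members, Tnfrsf8, Ltb, Lta, Tnf and Tnfsf14 had a ratio above 3.22. Tnfrsf22, Tnfrsf23, Tnfrsf26 and Relt, further family genes outside the list, were open at 4 of 4.

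Short motifs were counted within 100 bp of the summits, on both strands, as a description of letters and not of binding. Over the 94 regions away from promoters, AP-1 letters occurred in 14.9%, NFAT in 18.1%, RUNX in 22.3% and STAT in 13.8% of member regions. Over all 47809 such regions the shares were 22.6%, 19.9%, 23.2% and 16.0%. NF-kB letters occurred in 1 member region (1.06%), against 1.29%. No member region held the ETS letters CCGGAAGT, against 0.556%. The regions at promoters numbered 49, of which 41 overlapped a promoter of a member and 8 only that of another gene. Over these 49, AP-1 occurred in 12.2% and STAT in 12.2%, against 6.67% and 5.98% of all 16363. These 2 shares rest on 6 regions each, and both include the region at the Espn promoter in the Tnfrsf25 locus. NFAT occurred in 10.2% and RUNX in 8.16% of the 49 regions, against 10.004% and 10.4%. ETS letters were in 0 of the 49, against 5.08%, and NF-kB letters in 0, against 0.489%. In the RefSeq promoter table, 300 bases for each of 16522 genes, 30 members had an entry. There the NF-kB letters occurred at Ltb alone of the 30, or 3.33%, against 0.502% of all genes.

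Several members lie next to each other in the genome. The counts here cover the whole stretch from the first to the last locus, so they include regions between the member loci. Beside the lymphotoxin cluster, the stretch of Tnfsf9, Cd70 and Tnfsf14 on chromosome 17 held 14 replicated regions, 12.9 per 100 kb. That of Tnfsf15 and Tnfsf8 on chromosome 4 held 16, or 10.4 per 100 kb. That of Cd27, Ltbr and Tnfrsf1a on chromosome 6 held 15, or 10.01 per 100 kb. The stretch of Tnfsf4, Tnfsf18 and Fasl on chromosome 1 held 28 over 413.1 kb, or 6.78 per 100 kb. Of these, 4 lay in the Tnfsf4 locus, 4 in the Fasl locus and none in the Tnfsf18 locus, and the rest lay between loci. The stretch of Tnfsf13 and Tnfsf12 on chromosome 11 held 2 over 33.0 kb, or 6.06 per 100 kb. Each of these stretches was above the 2.35 per 100 kb of the main chromosomes, a figure that also covers sequence without genes.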

How the data were processed

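The authors deposited 1 peak list per library, in mm10 per the file headers, with a signal, a −log10 q-value and a score for each region. The aligner, the peak caller and its settings are not given in the sources used. Per the labels each list comes from 1 library, so peaks were called per sample and not on pooled reads. The files give no read counts, so depth is unknown and no interval could be set. The deposited score column was not used.

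Regions on the main chromosomes were read with Python 3.11.15 (pandas 2.3.3, numpy 2.4.6, scipy 1.17.1, pysam 0.24.0) and joined to the GENCODE M21 annotation, in which all 38 genes matched. The counting was tested on simulated data with planted regions. CpG ratios and sequences came from the GRCm38 reference, and the promoter motif counts from the RefSeq table of the same build. Genes named in full were the 5 ligands and receptors with the most regions, the 4 strongest and 4 weakest promoters, and those with no promoter or no region. Others named beside these were chosen after their values were seen. Members and lists were chosen with earlier results of these data known. The principal-start rule, the strength by signal and the CpG split were added after seeing the data. One B cell marker of the lists is not reported here.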

Additional observations from a re-analysis of the deposited data

How the results depend on the processing

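No paired analysis was possible because the series has 1 group. The order of ligands and receptors was reversed under several of the settings below. Of 131 main values recomputed under an alternative, 99 were counted as close to the main value and the rest as moved. Of 413 further values, most of them counts per gene, 290 were counted as close. Of the 38 promoters, 24 to 34 were open under every alternative run. With the 50000 strongest entries by signal, 9 ligand promoters were open, both genes of 9 pairs were open, and the median ratios to the length class were 1.11 for members, 1.02 for ligands and 1.15 for receptors. With the 50000 strongest by −log10 q, 9 ligands and 15 receptors were above their class, against 14 and 12 in the full lists, both genes of 13 pairs were open, and the ratios were 1.30, 1.47 and 1.30. With entries of −log10 q of 5 or more, the ligand ratio was 1.93 and the receptor ratio 1.39. Where the overlap had to cover 0.5 of each region, the member ratio was 1.40, the ligand ratio 1.34 and the receptor ratio 1.53. With the gene body alone, ligands had 1.66 and receptors 1.46. With 50 kb to either side, members had 1.77, ligands 2.07 and receptors 1.36. With 10 length classes the ligand ratio was 2.06. Without regions over promoters of other genes, members had 1.83, ligands 2.22 and receptors 1.66. Leaving out 1 replicate gave 1.62 to 1.72 for members, 1.88 to 1.97 for ligands and 1.48 to 1.56 for receptors. The median promoter percentile of members, 23.7, was 31.2 with the strongest entries by signal and 30.3 by −log10 q. It was 14.3 by signal and 20.6 with summits within 1 kb of the principal start, both chosen after seeing the data, and 23.0 to 26.0 with 1 replicate left out. The causes were not tested. The unknown read depth limits what an uncalled promoter can show, and 2 libraries of 1 donor identifier give no estimate of the spread between animals.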
